A study of Mus musculus with 6 samples.

Results

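The genes examined were 10 transcription factor genes of effector and exhausted CD8 T cells: Prdm1, Tox, Batf, Irf4, Tbx21, Eomes, Id2, Zeb2, Bhlhe40 and Runx3. They were chosen by name, as the genes whose Ensembl identifier in the count table carries one of these symbols, and all 10 were found among its 43629 genes. Expression was measured in 6 libraries of T cells sorted from pooled subcutaneous B16-OVA tumours of C57BL/6 mice at day 14, 3 of cells with low binding of the lectin L-Pha and 3 of cells with high binding. The B16-OVA tumour cells are mouse melanoma cells that carry the antigen ovalbumin. L-Pha is a plant lectin from Phaseolus that recognises branched N-linked sugar chains on surface proteins. No genotype other than the strain and no drug treatment is named for either group, and the age and number of the mice are not given in the sources used here. Per the series design the sorted cells were CD8+ and carried the T cell receptor, while the sorting protocol names TCRB and CD3. Because tumours were pooled, a library is not 1 animal, and p-values measure the spread between libraries, which may be technical. The comparison asked how these genes differed between L-Pha high and L-Pha low cells.

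These factors direct what an activated CD8 T cell becomes. Prdm1 encodes Blimp-1, a repressor that drives terminal effector differentiation, and Tox encodes an HMG-box protein needed for the exhausted state under chronic antigen. Tbx21 (T-bet) and Eomes are related T-box activators of cytotoxic genes. Batf and Irf4 encode partners that bind composite DNA elements after receptor signalling, Batf as a dimer with Jun proteins. Id2 blocks the DNA binding of E proteins, and Zeb2 is a zinc finger repressor found in terminal effectors. Bhlhe40 is a basic helix-loop-helix repressor induced by activation, and Runx3 establishes the CD8 lineage and residence in tissue.

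Library totals ran from 2610729 to 3521117 counts, and the 10 genes had 10 to 1397 counts per library. All 10 passed the filter on low counts, as did 11183 genes in all. T cell genes were present beside RNA of other tumour cells. Of 14 T cell identity genes, 14 had a count, with Trac at 0 to 3 counts per library, and their summed level in CPM, counts scaled to library size, was 425 to 736 in L-Pha high libraries and 312 to 863 in L-Pha low libraries. The lowest values came from the libraries numbered 3, with 312 CPM for L-Pha low 3 and 425 CPM for L-Pha high 3. All 7 melanoma genes had a count and summed to 10603 to 15904 CPM in L-Pha high libraries and 9540 to 15173 CPM in L-Pha low. Most of this sum came from 1 gene, Dct, at 8953 to 14040 CPM in L-Pha high and 7919 to 13380 CPM in L-Pha low. Among 11 marker lists, 10 overlapped between groups. The exception was the list of CD4 and regulatory T cell genes, at 58.6 to 78.6 CPM in L-Pha high libraries and 18.1 to 53.1 CPM in L-Pha low. The exact permutation test gave p = 0.1 (two-sided, the smallest possible with 3 against 3), or 0.943 after adjustment over the 11 lists. Its leading gene was Ikzf2, while Cd4 had 0 to 4 and Foxp3 0 to 7 counts per library. In bulk libraries like these, fewer cells of a type and less RNA per cell cannot be told apart.

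Prdm1 had the largest difference of the 10 genes and was the only one whose groups did not overlap. Its level was 56.9, 101 and 64.2 CPM in L-Pha high 1, 2 and 3, and 39.6, 27.3 and 21.8 CPM in L-Pha low 1, 2 and 3. The lowest L-Pha high library thus stood above the highest L-Pha low library, and L-Pha high 2 was far above all others. Means were 74.1 ± 23.7 and 29.5 ± 9.08 CPM (SD, n = 3 in either group), from 747 and 261 counts. The log2 fold change was 1.32 (SE 0.301, 95% interval 0.68 to 1.97), a 2.5-fold higher level. By edgeR's quasi-likelihood test it did not pass over all genes (Benjamini-Hochberg adjusted p = 0.264, range over 16 alternatives 0.0029 to 1). Over all tested genes, edgeR called 0.0% higher and 0.00894% lower. At an unadjusted p under 0.05 it placed 1.84% of genes higher and 1.97% lower, and groups did not overlap in the upward direction for 4.25% of genes and in the downward direction for 4.13%. Among the 10 factors 1 gene, Prdm1, had an unadjusted p under 0.05 and groups that did not overlap.

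The call for Prdm1 depended on the method while its direction did not. It passed with DESeq2 (adjusted p = 0.0264), which called 0.0715% of genes higher and 0.197% lower. With no filter on low counts edgeR gave 0.0029 and called 0.0915% of genes higher and 0.123% lower, and with a covariate for T cell identity it gave 0.0185 and called 0.152% higher and 0.188% lower. Prdm1 did not pass with limma-voom (adjusted p = 0.323), which called 0.0% of genes in either direction. On the deposited log2 table limma gave an adjusted p of 0.917, with 0.035% of genes called higher and 0.0% lower. With a mean trend, added after that result was seen, it gave 0.295, with 0.0% higher and 0.007% lower. Without L-Pha high 2 the log2 fold change was 1.02 (SE 0.315), the lowest over the alternatives, and without L-Pha low 1 it was 1.59 (SE 0.329), the highest. Prdm1 is also active in plasma cells and macrophages. Of the 9 B and plasma cell genes 8 had a count, with Pax5 at 0 in every library, and the list summed to 87.1 to 110 CPM in L-Pha high libraries and 82.0 to 169 CPM in L-Pha low. The plasma cell gene Jchain had 0 to 2 counts per library. Other genes of the list, named for their values, had more, with 8 to 148 counts for Mzb1, 59 to 83 for Sdc1 and 96 to 203 for Xbp1. The groups overlapped for these 3 genes. All 11 macrophage and monocyte genes had a count, and the list summed to 206 to 308 CPM in L-Pha high libraries and 166 to 240 CPM in L-Pha low. Its leading gene, C1qa, did not overlap, at 118 to 152 CPM in L-Pha high and 46.6 to 112 CPM in L-Pha low. Its log2 fold change was 0.63 (SE 0.296) and did not pass by edgeR. Named for their values, Ccr2 was also wholly higher in L-Pha high, and Fcgr1, which was not tested, wholly lower. The other genes of the list overlapped. The part of these cells in the Prdm1 difference was not tested.

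**Figure D1:**
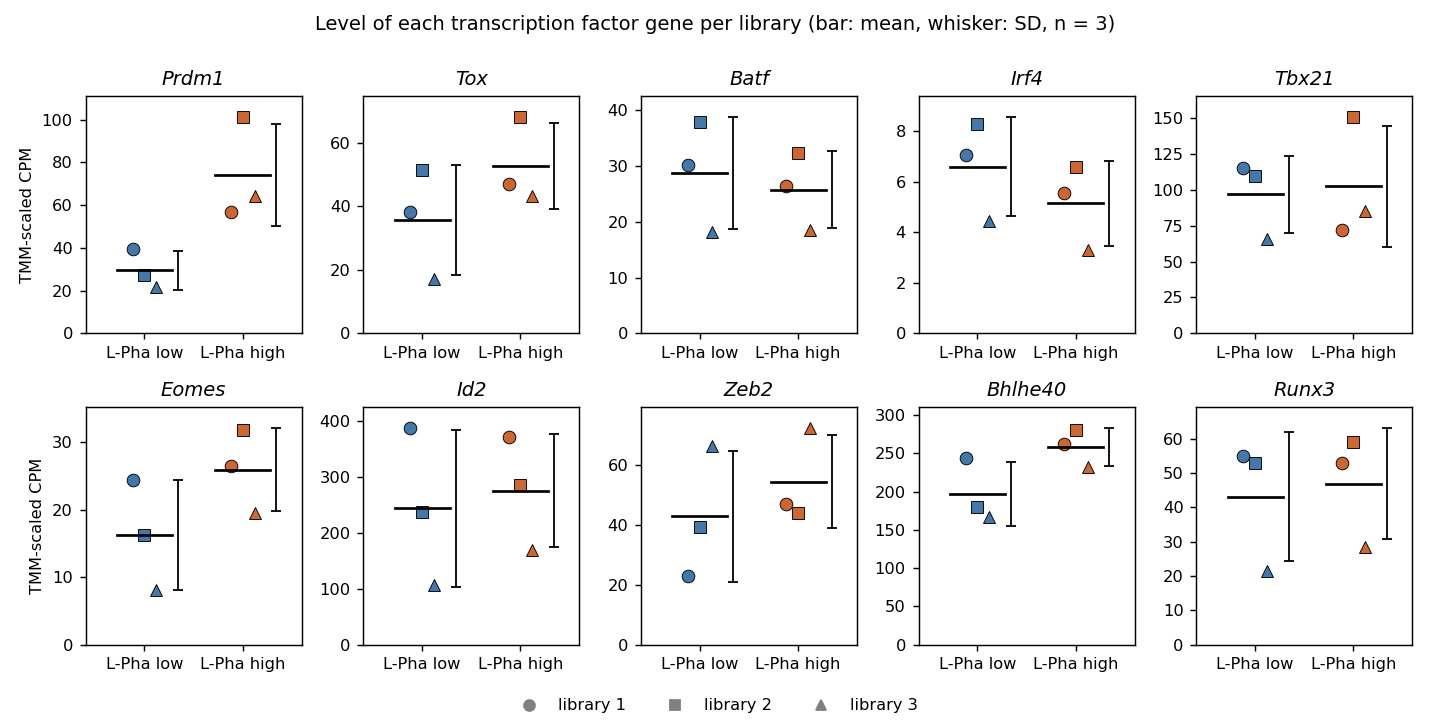
TMM-scaled CPM of each of the 10 genes (y axis, from 0, a separate scale for each gene) in the 3 L-Pha low and 3 L-Pha high libraries (x axis); symbols mark the library number, horizontal bars the mean and whiskers the SD. The L-Pha high points of Prdm1, from 56.9 to 101 CPM, lie above its L-Pha low points, from 21.8 to 39.6 CPM, and the groups overlap for the other 9 genes.

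Because Prdm1 was the gene whose groups were separate, the sequence before its start is shown. Prdm1 lies on the minus strand of chromosome 10 (ENSMUSG00000038151, GRCm38, 44437177 to 44528501 in the count table). The RefSeq start site used here lies inside that span. The 250 bases before the start (chr10:44458749-44458998, minus strand, GRCm38.p6, from RefSeq, 59.2% G and C) are given 5′ to 3′, with matches to the motifs searched in capitals.
Prdm1: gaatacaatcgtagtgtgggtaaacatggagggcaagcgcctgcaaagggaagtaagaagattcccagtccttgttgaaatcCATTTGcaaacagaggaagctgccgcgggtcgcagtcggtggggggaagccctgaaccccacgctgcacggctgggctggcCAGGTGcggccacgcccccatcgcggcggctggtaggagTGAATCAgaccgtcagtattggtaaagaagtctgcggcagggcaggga
Both strands were searched for the AP-1 pattern TGANTCA (N is any base), a loose form of the site that Batf binds with Jun proteins. The other patterns were the E-box CANNTG, the Runx core TGTGGT and the T-box motif AGGTGT. The AP-1 pattern matched at 1 place, reading TGAATCA and starting 48 bases before the start site, and 6.75% of 32851 promoter windows of this length hold it. The E-box matched at 2 places, starting 168 and 87 bases before the start, and 66.2% of windows hold it. The Runx core and the T-box motif had 0 matches in this window, against 14.0% and 11.8% of all windows. The capitals do not overlap one another, and a match describes letters and not a bound site.

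Tox, the exhaustion factor, had a higher mean in L-Pha high with overlapping groups. Its level was 46.8, 68.0 and 43.0 CPM in L-Pha high 1, 2 and 3 against 38.3, 51.4 and 17.0 CPM in L-Pha low 1, 2 and 3. L-Pha low 3 was the one low library, and L-Pha low 2 lay above 2 of the 3 L-Pha high libraries. The log2 fold change was 0.56 (SE 0.347, 95% interval -0.18 to 1.31, edgeR adjusted p = 1), so any value from a small decrease to a 2.47-fold increase lies in the interval. It was 0.24 with L-Pha low 3 left out and 0.92 without L-Pha low 2.

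The T-box factors Eomes and Tbx21 had different point values. Eomes stood at 26.5, 31.7 and 19.5 CPM in L-Pha high libraries and 24.4, 16.2 and 8.14 CPM in L-Pha low, in library order. L-Pha high 3 lay below L-Pha low 1, so the groups overlapped, and L-Pha low 3 was lowest. For Eomes the log2 fold change was 0.66 (SE 0.367, 95% interval -0.12 to 1.45, edgeR adjusted p = 1), from 0.35 without L-Pha low 3 to 1.08 without L-Pha low 1. Tbx21 stood at 72.3, 151 and 85.1 CPM in L-Pha high libraries and 115, 110 and 65.8 CPM in L-Pha low. Only L-Pha high 2 exceeded the L-Pha low libraries numbered 1 and 2. Its log2 fold change was 0.08 (SE 0.306, 95% interval -0.58 to 0.74) and turned to -0.32 without L-Pha high 2 and to -0.13 without L-Pha low 3. Whether the changes of the T-box genes differed from each other was not tested.

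Batf and Irf4, the paired factors of receptor signalling, were the 2 genes with lower point values in L-Pha high. Batf had 26.5, 32.3 and 18.5 CPM in L-Pha high libraries and 30.2, 38.0 and 18.1 CPM in L-Pha low. The log2 fold change was -0.16 (SE 0.321, 95% interval -0.85 to 0.53, edgeR adjusted p = 1), and it turned to 0.09 without L-Pha low 2 and to 0.03 without L-Pha high 3. Irf4 had 5.56, 6.59 and 3.31 CPM in L-Pha high libraries and 7.07, 8.28 and 4.44 CPM in L-Pha low, from 10 to 24 counts per library. In both genes the groups overlapped and the library numbered 3 was the lowest of its group. For Irf4 the log2 fold change was -0.35 (SE 0.443, 95% interval -1.3 to 0.60), the widest interval of the 10 genes. It was -0.13 without L-Pha high 3, -0.16 when L-Pha low 2 was left out, -0.56 when L-Pha low 3 was and -0.57 when L-Pha high 2 was.

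Bhlhe40 had the narrowest interval. It stood at 263, 280 and 232 CPM in L-Pha high libraries and 244, 181 and 166 CPM in L-Pha low, with L-Pha low 1 above L-Pha high 3. Means were 258 ± 24.6 and 197 ± 41.6 CPM (SD, n = 3 in either group). On the log2 scale Bhlhe40 differed by 0.39 (SE 0.226, 95% interval -0.10 to 0.87, edgeR adjusted p = 1) and stayed between 0.28 and 0.57 when any 1 library was left out.

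Id2 and Runx3 were spread more between libraries than between groups. Id2 stood at 370, 286 and 169 CPM in L-Pha high libraries and 386, 237 and 105 CPM in L-Pha low, with library 1 highest and library 3 lowest in both groups. Its log2 fold change was 0.18 (SE 0.384, 95% interval -0.65 to 1.00), and it turned to -0.18 without L-Pha low 3 and to -0.10 without L-Pha high 1. Runx3 stood at 52.9, 59 and 28.5 CPM in L-Pha high libraries and 55.0, 52.8 and 21.5 CPM in L-Pha low. Libraries 1 and 2 of both groups lay within 52.8 to 59 CPM, and both libraries numbered 3 lay well under them. For Runx3 the log2 fold change was 0.12 (SE 0.357, 95% interval -0.65 to 0.88), turning to -0.20 without L-Pha low 3 and to -0.09 without L-Pha high 2.

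Zeb2 ran the other way across libraries. It stood at 46.8, 44.0 and 72.2 CPM in L-Pha high libraries and 22.8, 39.3 and 66.2 CPM in L-Pha low, highest in both libraries numbered 3. The log2 fold change was 0.35 (SE 0.347, 95% interval -0.40 to 1.09, edgeR adjusted p = 1), 0.81 with L-Pha low 3 left out and 0.04 without L-Pha low 1. Zeb2 is also active in macrophages and in cells of the melanocyte lineage. The libraries numbered 3 had the highest melanoma sums, with 15904 CPM for L-Pha high 3 and 15173 CPM for L-Pha low 3. Dct alone made up 14040 and 13380 CPM of these, so the order of the sums is mainly that of 1 gene. Other genes of the list, named for their values, differed. Mitf was highest of its group in both, at 175.1 and 235.6 CPM. Pmel was highest in L-Pha high 3, at 917.5 CPM, but lowest of its group in L-Pha low 3, at 765.6 CPM. The macrophage sum was highest in L-Pha high 1, at 308 CPM, beside 265 CPM for L-Pha high 3 and 240 CPM for L-Pha low 3. The part of these cells in the Zeb2 values was not tested. The counts of Zeb2 can include reads of Mir5129, which shares its exon bases and strand, and none of the other 9 genes shared exon bases with a gene on its strand.

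**Figure D2:**
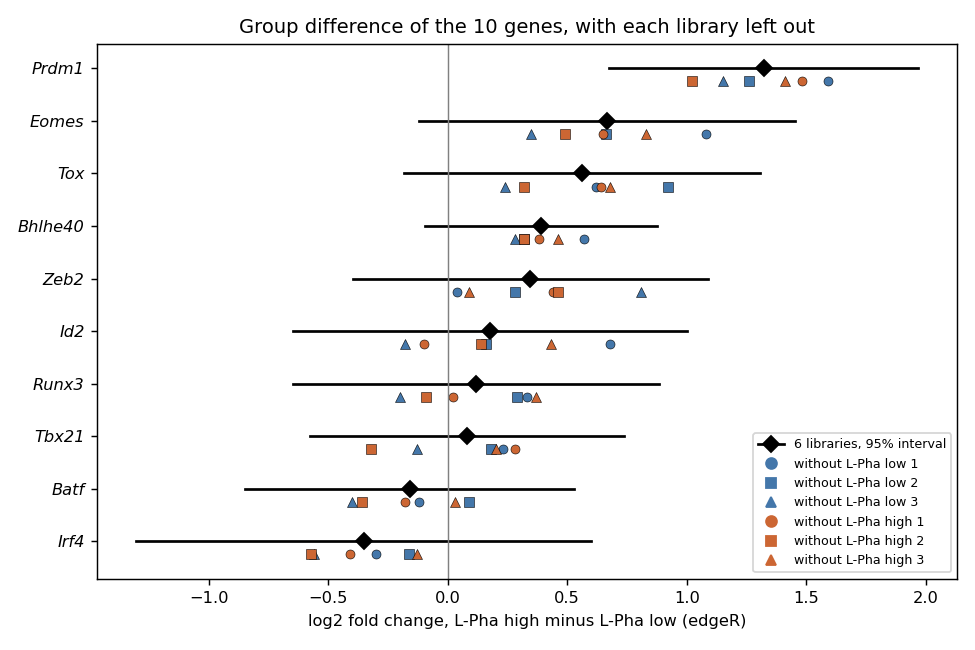
Log2 fold change of L-Pha high over L-Pha low by edgeR (x axis) for the 10 genes (y axis); diamonds and lines give the value and 95% interval from all 6 libraries, and small symbols the value with 1 library left out. The Prdm1 interval runs from 0.68 to 1.97, and the intervals of the other 9 genes include 0.

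Of the 10 genes 8 had a higher and 2 a lower point value in L-Pha high, with a median log2 fold change of 0.26. Over all 11183 tested genes 49.4% had a higher point value, with a median of 0.00 (-0.005). By edgeR 0 of the 10 genes were called higher and 0 lower, against 0.0% and 0.00894% of all tested genes. The direction held in all 16 alternatives for 6 genes (Prdm1, Tox, Irf4, Eomes, Zeb2 and Bhlhe40) and turned in 2 alternatives each for the other 4, each time when 1 library was left out. With scaling by library totals alone the median of all genes was 0.10, and the log2 fold changes of the 10 genes relative to it kept their directions.

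The libraries themselves ordered most of these genes. L-Pha low 3 held the lowest level of 8 of the 10 genes, the exceptions being Irf4, lowest in L-Pha high 3, and Zeb2, lowest in L-Pha low 1. L-Pha high 2 held the highest level of 6 genes. The highest library exceeded the lowest by 4.64-fold for Prdm1, 3.99-fold for Tox, 3.90-fold for Eomes and 3.66-fold for Id2, and by 1.68-fold for Bhlhe40. By the root mean square difference of centred log2 levels over the 6 libraries, Batf and Irf4 were the closest pair, at 0.13. Tox and Eomes were each nearest to the other, at 0.31, and Zeb2 was the farthest member from each of the other 9.

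**Figure D3:**
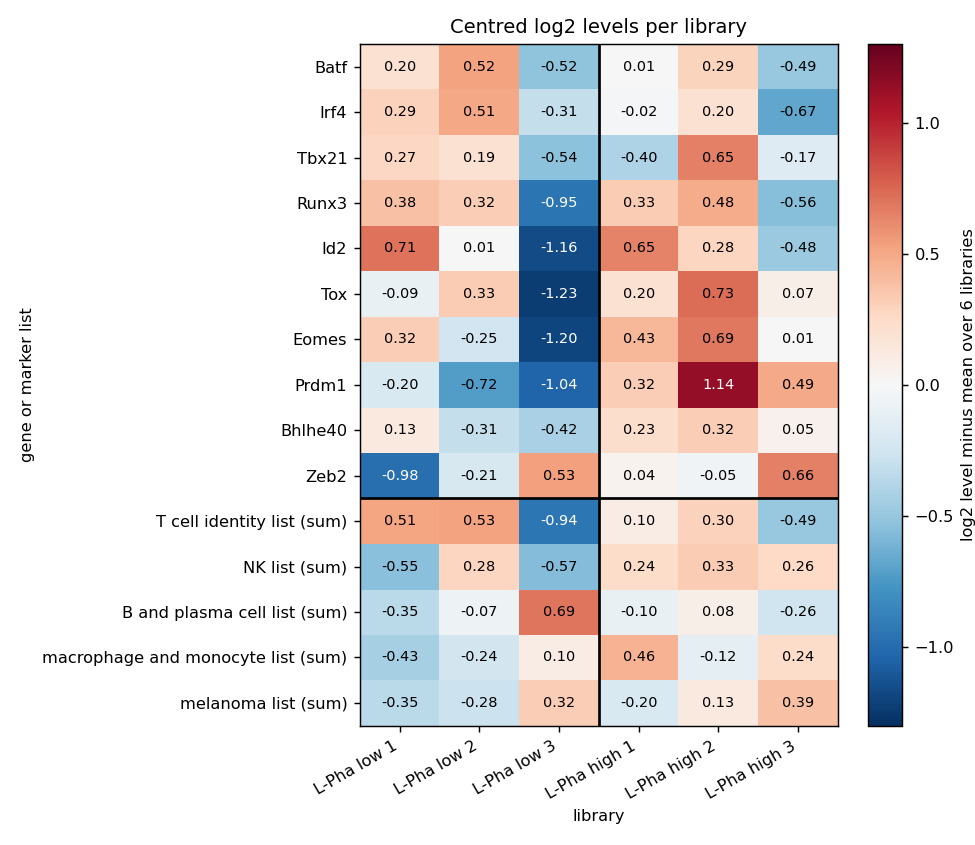
Log2 level of each gene minus its mean over the 6 libraries (colour and printed value), with the summed level of 5 marker lists under the line; columns are libraries. In L-Pha low 3 Tox, Eomes, Id2 and Prdm1 lie at -1.04 or less beside a T cell identity sum of -0.94, while Zeb2 lies at 0.53.

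Among 5065 other genes of at least 20 CPM, the gene nearest to Prdm1 by the same measure was Nr4a2, an orphan nuclear receptor gene, at 0.16. Nr4a2 had a log2 fold change of 1.20 (SE 0.272). Next were Bcl2a1a, S100a4, AA467197 and Cx3cr1, at 0.26 to 0.30. The genes nearest to Tox were Ptpn7, Ostf1, Tnfrsf18, Cd3g and Cd82, at 0.15 to 0.21, of which Cd3g belongs to the T cell identity list. Those nearest to Tbx21 were Limk2, Psmb8, Bcl2l11, Gmppb and Lypla2, at 0.14 to 0.18. All genes were read from the same 6 libraries, which differ in depth and cell mixture, and the distances carry no test.

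Because the T cell signal varied, each gene was also set against it, a description chosen after the values were seen. Per 100 counts of T cell identity genes, Prdm1 had 8.91, 13.7 and 15.1 counts in L-Pha high 1, 2 and 3 and 4.64, 3.16 and 7 in L-Pha low 1, 2 and 3. Tox had 7.33, 9.23 and 10.1 against 4.49, 5.96 and 5.46, and Eomes 4.14, 4.31 and 4.60 against 2.87, 1.88 and 2.61. On this scale the groups of these 3 genes did not overlap, with every L-Pha high library above every L-Pha low library. The same held in the upward direction for 1.3% of all tested genes and in the downward direction for 1.25%. On CPM those shares were 4.25% and 4.13%, so they depend on the scale, and 1.3% is no measure of how unusual the 3 genes are. Whether genes that do not follow the T cell signal lower the share on this scale was not tested. The identity genes gave 843 counts in L-Pha low 3 and 1284 to 2649 in the other libraries. The groups overlapped for the other 7 genes, among them Tbx21, at 11.3 to 20.5 against 12.7 to 21.1, and Runx3, at 6.7 to 8.29 against 6.12 to 6.88. With the covariate for T cell identity in edgeR, Tox had a log2 fold change of 0.68 and Eomes of 0.76, with adjusted p-values of 0.441 (range over alternatives 0.441 to 1) and 0.583 (0.468 to 1). The difference seen on this scale for Tox and Eomes thus did not pass that test.

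**Figure D4:**
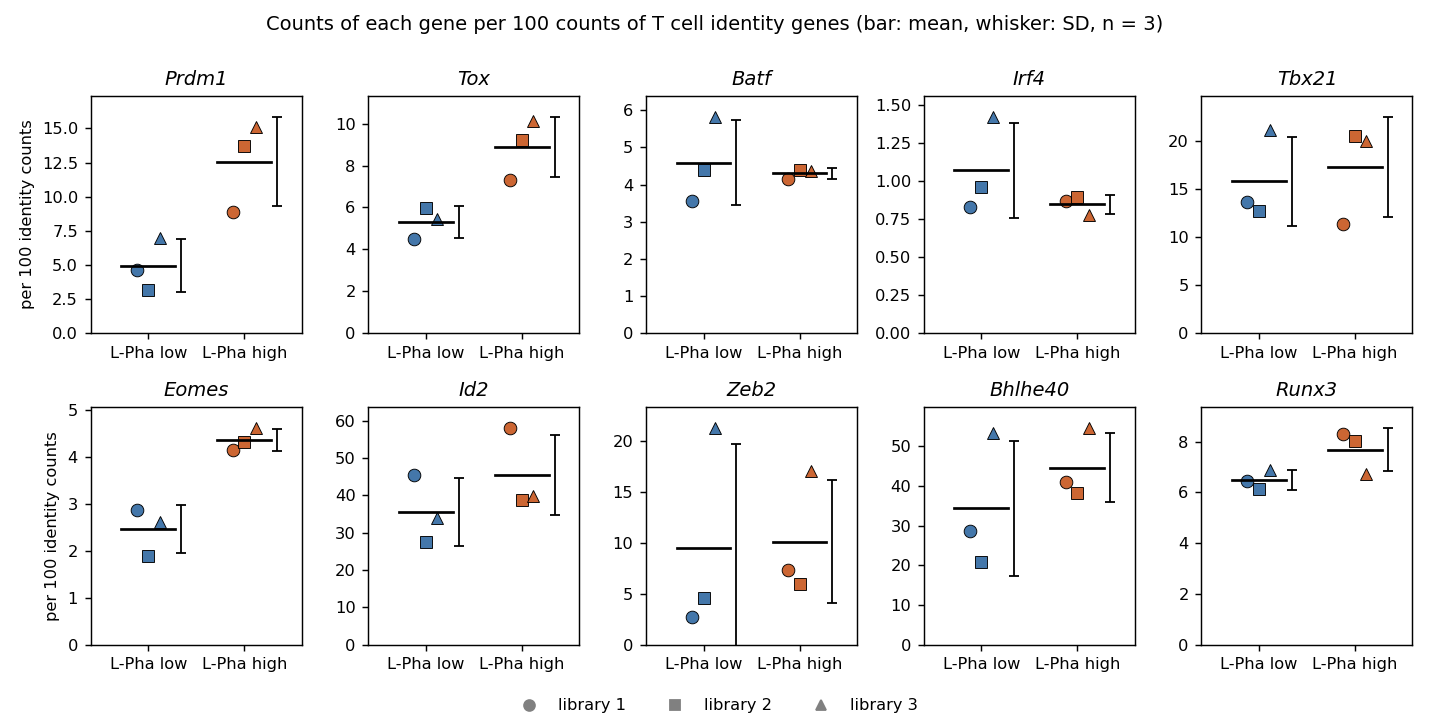
Counts of each of the 10 genes per 100 counts of the 14 T cell identity genes (y axis, from 0, a separate scale for each gene) in L-Pha low and L-Pha high libraries (x axis); bars are means and whiskers the SD (that of Zeb2 in L-Pha low runs past the axis). Prdm1, Tox and Eomes show L-Pha high libraries above all L-Pha low libraries, at 8.91 to 15.1, 7.33 to 10.1 and 4.14 to 4.60.

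Among partners and relatives of the 10 factors 1 gene passed the test. Of 50 such genes 42 were tested, and edgeR called 0 higher and 1 lower, Tcf7, against 0.0% and 0.00894% of all tested genes. Point values were higher for 22 and lower for 20, with a median log2 fold change of 0.01. Among genes with an unadjusted p under 0.05, 4 were higher (Irf8, Ikzf2, Nr4a2 and Rbpj) and 2 lower (Tcf7 and Klf2), of which Nr4a2, Rbpj and Klf2 are named for their values. Over all tested genes these shares were 1.84% higher and 1.97% lower. The list was fixed with earlier results of these data known, so these counts are no independent evidence about the partners. Tcf7, Klf2, Id3 and Bcl6 are counted again among the genes that Blimp-1 represses. Irf8, a close relative of Irf4, stood at 183 ± 52.6 CPM in L-Pha high libraries and 113 ± 38.5 CPM in L-Pha low libraries (SD, n = 3 in either group), for a log2 fold change of 0.70 (SE 0.300) and an edgeR adjusted p of 1. Ikzf2, which encodes Helios, differed by 0.83 on the log2 scale (SE 0.353, adjusted p = 1 by edgeR) and groups that did not overlap, and Rbpj, the DNA-binding factor of Notch signalling, had 0.93 (SE 0.229, edgeR adjusted p = 0.388).

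The relatives that act against or beside each factor had small or uncertain differences. Bcl6 and Bach2, repressors opposed to Blimp-1, differed by 0.49 (SE 0.521) and -0.52 (SE 0.415) on the log2 scale. The Blimp-1 relative Zfp683 (Hobit) had 0 counts in all 6 libraries, which allows up to 3 counts in each, or 0.852 to 1.15 CPM. Junb and Jund, Jun partners of Batf, had -0.24 (SE 0.325) and -0.18 (SE 0.329), and Irf2 had -0.21 (SE 0.281). Batf3 and Tox2 had 0 to 6 and 0 to 12 counts per library and were not tested. Id3, the other inhibitor of E proteins in T cells, had -0.82 (SE 0.457), and the E proteins Tcf3 and Tcf12 had -0.28 (SE 0.429) and -0.05 (SE 0.265). Zeb1 had 0.40 (SE 0.496) and Bhlhe41 -0.22 (SE 0.320). Runx1, Runx2 and their partner Cbfb had 0.00 (SE 0.421), 0.10 (SE 0.532) and 0.18 (SE 0.248). Nfatc1, a factor of receptor signalling, had 0.47 (SE 0.376), Nr4a1 -0.46 (SE 0.369) and Maf 0.24 (SE 0.274). Of the genes in this paragraph that were tested, none passed by edgeR, each with an adjusted p of 1.

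Genes that Blimp-1 is known to repress were mostly lower in L-Pha high in point value. Of 8 such genes 7 had lower point values and the median of the list was -1.32 on the log2 scale. By edgeR 1 was called lower (Tcf7) and 0 higher. Over all tested genes 49.4% had a higher point value, the median was -0.005, and edgeR called 0.00894% lower. In the list 5 genes were lower at an unadjusted p under 0.05, against 1.97% of all genes, and 5 had an L-Pha high group wholly below the L-Pha low group, against 4.13%. Many of these genes also mark naive and memory cells and their pattern was known from earlier results of these data, so these counts are no independent evidence about Blimp-1. Tcf7, the gene of TCF-1, stood at 3.71, 3.89 and 2.65 CPM in L-Pha high libraries and 35.7, 20.4 and 19.2 CPM in L-Pha low, a log2 difference of -2.86 (SE 0.383) with an edgeR adjusted p of 0.0347. Without L-Pha low 1, L-Pha low 2 or any 1 of the L-Pha high libraries edgeR called 0 genes lower. Il7r, the interleukin-7 receptor gene, stood at 8.35 ± 1.08 against 20.8 ± 5.61 CPM, a log2 difference of -1.31 (SE 0.329) with an edgeR adjusted p of 0.404.

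Targets of the other factors went both ways. Of 5 T-bet target genes 3 had higher and 2 lower point values, and of 4 Eomes targets 3 were higher and 1 lower, with 0 called by edgeR in either list. Over all tested genes 49.4% had a higher point value, and edgeR called 0.0% higher and 0.00894% lower. Il2rb is counted in both lists, and the Eomes target Prf1 again among the Runx3 targets. Cxcr3, a chemokine receptor gene activated by T-bet, stood at 3.97, 2.1 and 1.66 CPM in L-Pha high libraries and 15.4, 22.1 and 10.4 CPM in L-Pha low. Its log2 fold change was -2.59 (SE 0.455, edgeR adjusted p = 0.0978), beside 0.08 for Tbx21 itself. Ifng, the interferon gamma gene, had 0.24 (SE 0.386). Il2rb, an interleukin-2 receptor chain gene, had means of 774 ± 389 and 457 ± 182 CPM in L-Pha high and L-Pha low (0.76 on the log2 scale, SE 0.351), and Prf1, the perforin gene, means of 67.9 ± 34.6 and 31.3 ± 27.9 CPM (1.11, SE 0.752). Of the Runx3 targets Itgae, which Runx3 activates, had 2 counts in L-Pha high and 14 in L-Pha low and was not tested. Zbtb7b, which Runx3 represses, had a log2 fold change of -0.27 (SE 0.336). Of 4 listed genes that Runx3 activates 2 were tested, Prf1 among them, and both had higher point values. Of the Zeb2 targets Cx3cr1, a receptor gene of terminal effectors and of macrophages, had means of 43.1 ± 16.2 and 22.8 ± 8.19 CPM in L-Pha high and L-Pha low (0.91 on the log2 scale, SE 0.341), with groups that did not overlap, and S1pr5 had 0 to 4 counts per library. For Ifng, Il2rb, Prf1, Zbtb7b and Cx3cr1 the edgeR adjusted p was 1.

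**Figure D5:**
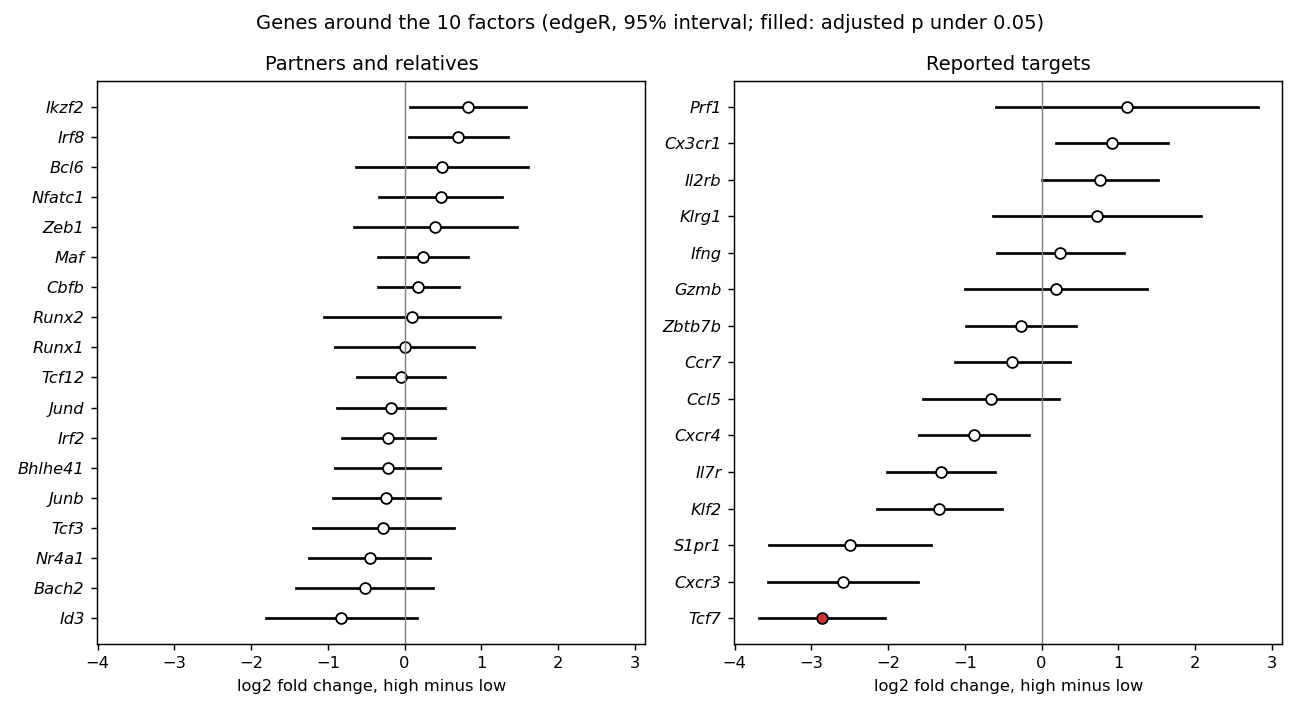
Log2 fold change of L-Pha high over L-Pha low by edgeR with its 95% interval (x axis) for a selection of the tested partners and relatives (left) and reported targets (right) of the 10 factors; a filled point marks an adjusted p under 0.05. Tcf7, at -2.86, is the 1 filled point, and Cxcr3 lies at -2.59.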

How the data were processed

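Libraries were prepared with QuantSeq, which sequences transcripts near their poly(A) end, from 3 L-Pha low and 3 L-Pha high samples. The deposited count table, per the file headers, was produced with featureCounts 1.5.0-p3 over GRCm38 gene models of Ensembl release 78, on the sense strand, counting multi-mapping reads at each place and overlapping reads for every gene. The submitters' processing notes name the build hg19, which does not match that header. A deposited table of log2 values for 14293 symbols, whose making is not given in the sources used here, served 2 alternatives. Symbols came from GENCODE M21 for 97.3% of identifiers. 

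Counts were scaled by TMM, filtered with filterByExpr (11183 genes tested) and compared with edgeR 4.0.16 (quasi-likelihood, robust, group as the only term) in R 4.3.3, with Benjamini-Hochberg adjustment over all genes and calls at 0.05. Printed levels are CPM after TMM scaling, and standard errors come from the F statistic. Log2 levels used a prior count of 2. The step was tested on simulated data. There edgeR called 20 of 100 genes changed 2-fold and 74 of 100 changed 4-fold, with 3 false calls. Alternatives were DESeq2 1.42.0, limma 3.58.1 (voom, and on the log2 table without and, added after seeing the data, with a mean trend), other scalings and filters (5 CPM in 3 libraries, or none), a T cell identity covariate, a block on library numbers, and leaving out each library. The 10 genes, the lists and the genes to name were fixed in writing with earlier results of these data known: all 10 members, a set partner or relative of each, 2 targets for each of 5 factors, and the 5 nearest genes of Prdm1, Tox and Tbx21. Further genes named are said to be named for their values. Protein sequences were not used here. The values of 1 gene of a target list are not reported here, though it is counted in that list.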

Additional observations from a re-analysis of the deposited data

How the results depend on the processing

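Over 16 alternatives, the 10 genes kept their direction in all but 8 cases, each with 1 library left out and none past the threshold. With 1 library left out, log2 fold changes ran from -0.4 to 0.09 for Batf, -0.32 to 0.28 for Tbx21, -0.18 to 0.68 for Id2 and -0.20 to 0.37 for Runx3. Batf turned to 0.09 without L-Pha low 2 and to 0.03 without L-Pha high 3, Tbx21 to -0.13 without L-Pha low 3 and to -0.32 without L-Pha high 2, Id2 to -0.18 without L-Pha low 3 and to -0.10 without L-Pha high 1, and Runx3 to -0.20 without L-Pha low 3 and to -0.09 without L-Pha high 2. The number of the 10 genes called higher was 0, and 1 (Prdm1) with no filter on low counts, DESeq2, the T cell identity covariate and the replicate block.

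Over all genes edgeR called 0 higher and 1 lower. There were 20 higher and 27 lower with no filter, 8 and 22 with DESeq2, and 17 and 21 with the covariate. There were 0 lower with library totals alone and 0 lower with limma-voom. On the deposited log2 table limma called 5 higher and 0 lower, and with a mean trend, added after that result was seen, 0 higher and 1 lower. With 1 library left out, 0 to 1 were called higher and 0 to 7 lower, the largest numbers without L-Pha low 3. The cause of these changes was not tested.

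The numbers 1 to 3 are not stated to pair the libraries. The deviations from the group means of same-numbered libraries correlated at 0.368, 0.082 and 0.467 across genes, and L-Pha low 2 correlated best with L-Pha high 1 (0.126). With a replicate block edgeR called 20 genes higher and 23 lower, and 1 of the 10 genes higher (Prdm1, log2 fold change 1.31, adjusted p = 0.0308). With 10 to 24 counts per library Irf4 was limited by depth, and with 3 libraries a group the 95% intervals of 9 genes include 0, which does not show that they did not differ.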
